A study of Parasteatoda tepidariorum with 20 samples.

Results

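The Hedgehog signalling pathway was followed through embryogenesis of the common house spider Parasteatoda tepidariorum. Its gene models were the rows of the deposited abundance table whose description named hedgehog, patched, smoothened, suppressor of fused or cubitus, without those described only as containing a domain. Of 27990 gene models, 8 met this rule. They carry 7 distinct locus IDs, because both gene models of patched carry the same one. The choice used no measured value.

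mRNA of whole embryos was sequenced at 10 stages (st) in 2 developmental series. The stages run from st1 to st8 with an early and a late sample of st5, and the last is st10. Each series came from its own pair of parents, so each stage has n = 2, and every library pooled several embryos. Stage st1 was collected at 9 hours after egg laying, at the 16-cell stage, and st2 at 15 hours, at the 256-cell stage. St3 followed at 20 to 21 hours, st4 at 25 to 26, st5 early at 31 to 32 and st5 late at 36 to 37. St6 was collected at 42 to 43 hours, st7 at 50, st8 at 60 and st10 at 78. Abundance is given as RPKM, the reads of a gene model scaled to its exon length and to the size of the library, a scale on which gene models of unequal length can be compared. Libraries held 9160802 to 17019009 reads. Over the 13375 gene models tested, log2(RPKM + 1) correlated between the series at r = 0.928 at st6, against 0.949 to 0.981 at the other 9 stages. Tests that touch st6 are thus also given without an st6 library. In whole embryos, fewer cells that express a gene and less RNA in each of them cannot be told apart.

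Hedgehog is a secreted signalling protein. It binds Patched, a membrane protein that otherwise keeps the membrane protein Smoothened inactive. Active Smoothened lets the transcription factor Cubitus interruptus, called Gli in vertebrates, switch on target genes, and Suppressor of fused binds and restrains that factor. In Drosophila, patched is itself a target gene, and hedgehog is made next to cells that respond to it in each segment. In spiders, the pathway is known for its part in laying out the axes and segments of the germ disc and germ band.

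The ligands come first. The table describes 3 gene models as Hedgehog ligands. Hedgehog itself is aug3.g4322, at 237576 to 301138 of scaffold 547 (plus strand) in the assembly Ptep_1.0. Its locus ID has the synonyms hedgehog and hh in RefSeq, while the table describes it as sonic hedgehog protein-like. A second gene model described as sonic hedgehog protein-like, aug3.g16219, lies at 58598 to 97524 of scaffold 2174 (minus strand). The gene model described as desert hedgehog protein B-like, aug3.g5978, lies at 91971 to 135434 of scaffold 709 (minus strand).

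Hedgehog was nearly absent at st1, with 1 read in each series, and then became abundant. In series 2 its abundance was 0.0504, 9.62, 22.5, 43.1, 34.5, 24.6, 55.8, 18.6, 15.4 and 15.7 RPKM from st1 to st10. In series 1 it was 0.0411, 9.94, 17.0, 74.2, 50.8, 28.8, 26.3, 18.1, 16.9 and 12.8 RPKM. The values of both series were lowest at st1 and close to each other at st2, st7 and st8. They were farthest apart at st6, where the library of series 2 held more than that of series 1, and at st4, where it held less.

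At st2, 365 reads of hedgehog were counted over both series, against 2 reads at st1. The ratio of the rates was 216, with a 95% exact interval of 59.3 to 1789 that covers counting error only. At st4 the same ratio to st1 was 1313 (interval 363 to 10846). The ligand was thus close to the limit of detection at the 16-cell stage and clearly present at the 256-cell stage.

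The other ligand gene models were rare at every stage. The second sonic hedgehog-like gene model had 16 reads in series 2 and 73 reads in series 1 at st1, which are 0.422 and 1.57 RPKM. Over st2 and st3 it had 5 reads in 4 libraries, and over st4 to st10 it had 3 reads in 14 libraries. The ratio of its rates at st2 and st1 was 0.189 in series 2 (95% exact interval 0.0353 to 0.661) and 0.0188 in series 1 (0.0005 to 0.108), and 0.0531 over both (0.0142 to 0.141), where 73 of the 89 reads at st1 came from series 1. The intervals cover counting error only. In both series its reads thus lay mostly at the stage where hedgehog itself was near 0. The desert hedgehog B-like gene model had 4 reads at st1, 18 reads over st2 and st3, of which 11 came from the st2 library of series 2, and 1 read over st4 to st10. Pooled over st4 to st10, both gene models stayed under 0.0162 RPKM, the larger upper bound of their intervals.

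**Figure D1:**
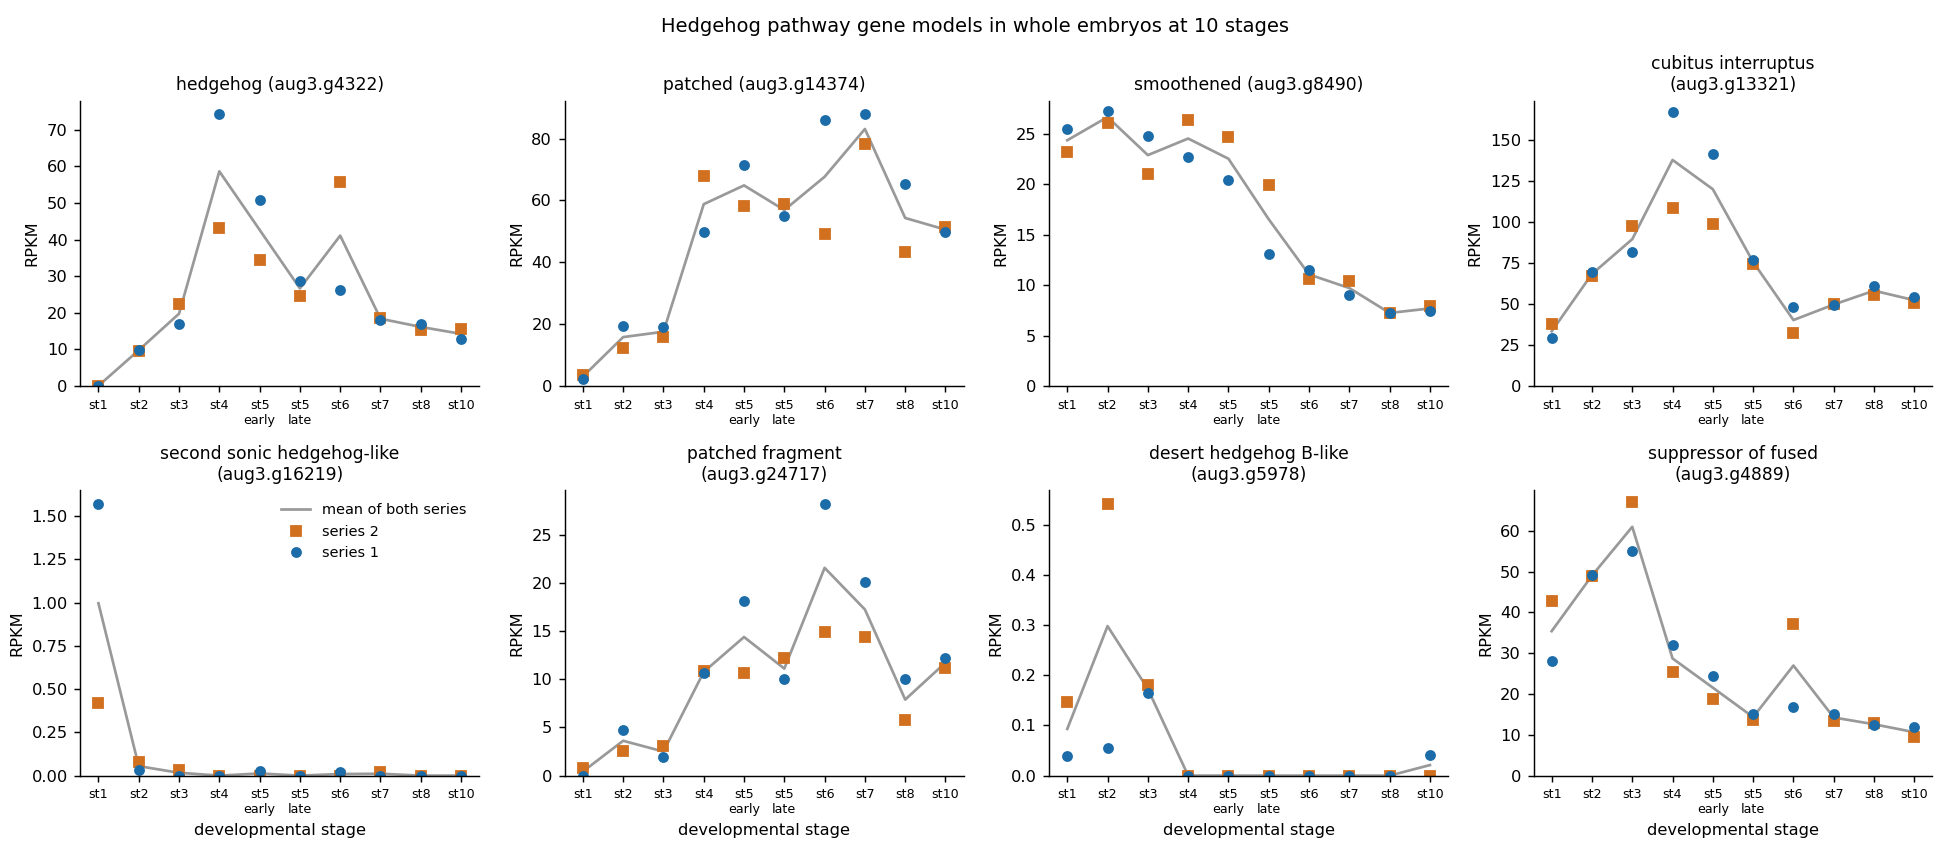
Abundance in RPKM as deposited (vertical axis, scaled to each gene model) at 10 stages (horizontal axis). Squares are series 2, circles are series 1 and the line is their mean. Hedgehog and cubitus interruptus are highest at st4 on average, suppressor of fused at st3 and patched at st7, while smoothened is lower from st6 on.

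Patched, the receptor, was present at a low level at st1 and became one of the most abundant members. Its gene model aug3.g14374 lies at 26148 to 92754 of scaffold 1861 (minus strand), where it overlaps 1 other gene model, on the opposite strand. Reads were counted by strand. In series 2 its abundance was 3.67, 12.3, 15.9, 67.8, 58.2, 58.8, 49.2, 78.3, 43.2 and 51.5 RPKM from st1 to st10. In series 1 it was 2.38, 19.3, 19.2, 49.8, 71.5, 55.1, 86.1, 88.0, 65.4 and 49.7 RPKM. As deposited it was highest at st7 in both series, but with median-ratio scaling between libraries series 2 was highest at st4, at 83.1 against 79.4 at st7. From st4 on every library lay above every library of st1 to st3.

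A short gene model with the same locus ID, aug3.g24717, fills positions 1 to 1239 of scaffold 28633 (minus strand). With 105 bases of exon and 291 reads in all 20 libraries, it is a fragment with few reads. Its highest value fell at st6 in each series, with 15.0 RPKM in series 2 and 28.2 RPKM in series 1. Its ratio to the long gene model averaged 0.316 at st6. The mean ratio at st1, 0.114, rests on 1 read of the fragment in series 2 and 0 in series 1. Since they share a locus, the 2 gene models of patched are not independent.

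Smoothened, the transducer held back by Patched, was steady at first and lower later. Its gene model aug3.g8490 lies at 474665 to 504792 of scaffold 913 (plus strand). In series 2 its abundance was 23.3, 26.1, 21.0, 26.4, 24.7, 19.9, 10.6, 10.4, 7.21 and 7.90 RPKM from st1 to st10. In series 1 it was 25.5, 27.3, 24.8, 22.7, 20.4, 13.1, 11.5, 9.06, 7.28 and 7.48 RPKM. As deposited, every library from st6 on lay below every library of the earlier stages. With median-ratio scaling, the st6 library of series 2, at 15.3, lay above the st5 late library of series 1, at 13.4.

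Suppressor of fused, the inhibitor, was among the most abundant members at st1. Its gene model aug3.g4889 lies at 45479 to 47694 of scaffold 600 (minus strand). In series 2 its abundance was 42.7, 48.9, 67.0, 25.3, 18.7, 13.7, 37.2, 13.4, 12.9 and 9.45 RPKM from st1 to st10. In series 1 it was 28.1, 49.1, 54.9, 32.1, 24.4, 15.0, 16.8, 15.1, 12.3 and 11.8 RPKM. Both series were highest at st3 and lowest at st10, and the st6 library of series 2 was far above its neighbours at st5 late and st7.

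Cubitus interruptus, the transcription factor at the end of the pathway, had the highest level of all members. Its gene model aug3.g13321 lies at 46406 to 122044 of scaffold 1628 (minus strand). In series 2 its abundance was 37.6, 67.4, 97.7, 109, 98.9, 74.3, 32.1, 49.9, 55.6 and 50.5 RPKM from st1 to st10. In series 1 it was 29.1, 69.4, 81.6, 167, 141, 77.1, 48.4, 49.5, 60.8 and 54.2 RPKM. Both series were highest at st4. The lowest stage as deposited was st6 in series 2 and st1 in series 1. With median-ratio scaling series 2 was also lowest at st1, at 29.1 against 46.5 at st6.

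The order of the members changed with the stage. At st1, suppressor of fused averaged 35.4 ± 10.3 RPKM (SD, n = 2) and cubitus interruptus 33.3 ± 5.99 RPKM, with overlapping values, followed by smoothened at 24.4 ± 1.58 RPKM and patched at 3.02 ± 0.907 RPKM. At st4, cubitus interruptus came first at 138 ± 41.3 RPKM, above patched at 58.8 ± 12.7 RPKM and hedgehog at 58.7 ± 22.0 RPKM, whose values overlapped. At st7, patched came first at 83.1 ± 6.85 RPKM, and its libraries did not overlap those of cubitus interruptus at 49.7 ± 0.260 RPKM. At st10, cubitus interruptus and patched overlapped again, at 52.3 ± 2.63 and 50.6 ± 1.28 RPKM, followed by hedgehog at 14.2 ± 1.99 RPKM.

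Differences between stages were tested with limma on log2(RPKM + 1), with 2 libraries per stage and adjustment over all gene models tested. A gene model was tested if it reached 1 RPKM in at least 2 libraries. This left 6 members and removed the 2 rare ligand gene models. The 6 include both gene models of patched, so counts of members hold that locus 2 times wherever both passed. All 6 differed across the 10 stages at an adjusted p under 0.05, as did 79.8% of the gene models tested. The largest of the 6 adjusted p-values was 8.6e-05, for cubitus interruptus.

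The first question was what changed as the germ disc formed. The germ disc stages (st4, st5 early and st5 late) were compared with the stages before them (st1, st2 and st3). Of the 6 members, 4 were higher in the germ disc stages, against 24.4% of all gene models tested, and 1 was lower, against 43.3%. Hedgehog was higher by 2.73 on the log2 scale (SE 0.19, adjusted p = 1.1e-08 from limma). Patched was higher by 2.51 (SE 0.18, limma adjusted p = 1.3e-08) and its fragment by 2.22 (SE 0.23). Cubitus interruptus was higher by 0.85 (SE 0.15, limma adjusted p = 0.00016). Suppressor of fused, the inhibitor, fell by 1.15 (SE 0.18, limma adjusted p = 5.6e-05). The difference of smoothened, -0.23 (SE 0.13, limma adjusted p = 0.12), did not pass the threshold, and it passed without the st5 late library of series 2 (-0.33, limma adjusted p = 0.037).

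The second question was what changed as the germ disc turned into the germ band. The germ band stages (st7, st8 and st10) were compared with the germ disc stages, leaving out st6. No member was higher in the germ band stages, where 28.2% of all gene models tested were, and 4 were lower, against 18.5%. With voom weights on the recovered reads, again 4 members passed, and the same 4 were those at an unadjusted p under 0.05. Hedgehog fell by 1.25 (SE 0.19, limma adjusted p = 8.3e-05), smoothened by 1.25 (SE 0.13, limma adjusted p = 1.6e-06), cubitus interruptus by 0.99 (SE 0.15, limma adjusted p = 8.1e-05) and suppressor of fused by 0.69 (SE 0.18, limma adjusted p = 0.0056). The difference of patched was 0.02 (SE 0.18, limma adjusted p = 0.94), and that of its fragment was -0.03 (SE 0.23). The level of the receptor was thus not shown to change while those of the ligand and of the transcription factor fell.

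**Figure D2:**
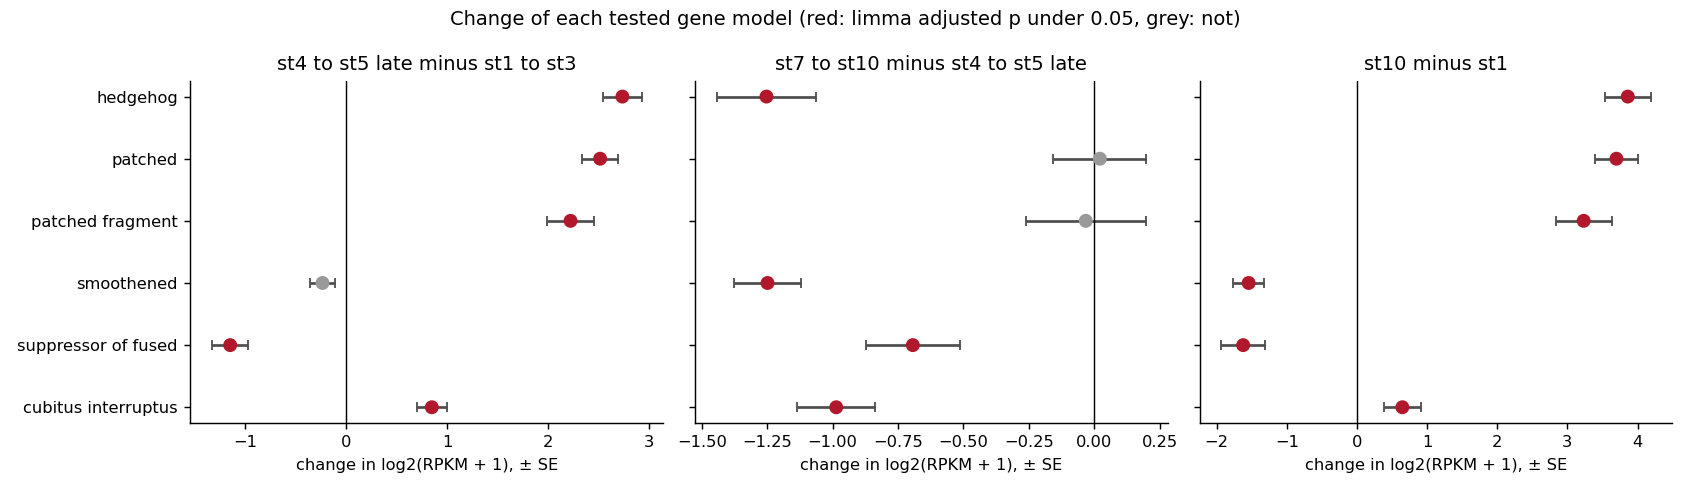
Change in log2(RPKM + 1) (horizontal axes, with standard errors) of the 6 gene models tested, in 3 comparisons of stages. Red points passed an adjusted p of 0.05 and grey points did not. Hedgehog, patched and cubitus interruptus lie right of 0 in the left panel, while in the middle panel hedgehog lies at -1.25 and patched at 0.02.

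Between the first and last stage, 4 members were higher at st10 than at st1, against 23.2% of all gene models tested, and 2 were lower, against 34.9%. Hedgehog was higher by 3.86 (SE 0.33), patched by 3.70 (SE 0.31) and the patched fragment by 3.23 (SE 0.40). Smoothened fell by 1.54 (SE 0.22) and suppressor of fused by 1.62 (SE 0.31). Cubitus interruptus was higher by 0.65 (SE 0.26, limma adjusted p = 0.045), and this call did not survive several of the alternatives, with limma adjusted p-values from 0.00042 to 0.24 over 28 of them. Without the st1 library of series 1 its difference was 0.47 and its limma adjusted p was 0.24.

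Among the 9 pairs of consecutive stages, calls lay at 2. At st2, 4 members were higher than at st1, against 9.78% of all gene models tested, and none was lower, where 17.2% were. In limma and with voom weights, 0 were lower also at an unadjusted p under 0.05. The higher ones were hedgehog by 3.37 (SE 0.33, limma adjusted p = 6.5e-06), patched by 2.05 (SE 0.31, limma adjusted p = 0.00021), the patched fragment by 1.73 (SE 0.40) and cubitus interruptus by 1.03 (SE 0.26, limma adjusted p = 0.0091). The calls of the fragment and of cubitus interruptus were lost without the st1 library of series 1, with limma adjusted p-values of 0.067 and 0.082, and without the st2 library of series 1, with 0.064 and 0.052. The rise of hedgehog on this scale understates its change, since 1 RPKM was added to a value near 0.

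At st4, 3 members were higher than at st3, against 8.72% of all gene models tested. They were patched by 1.68 (SE 0.31, limma adjusted p = 0.00066), its fragment by 1.77 (SE 0.40) and hedgehog by 1.48 (SE 0.33, limma adjusted p = 0.0029). Suppressor of fused was lower at st4, with a difference of -1.06 (SE 0.31, limma adjusted p = 0.016), against 26.5% of all gene models tested that were lower. Without the st3 library of series 2 its limma adjusted p was 0.11, without the st4 library of series 2 it was 0.12, and with median-ratio scaling it was 0.15.

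At the other 7 steps, no member passed in limma. Over their 42 tests, 8 had an unadjusted p under 0.05, and voom weights on the recovered reads gave 0 calls and again 8. Few gene models of the whole table were called there. At st3 against st2, 2.72% were higher and 1.78% lower, at st5 early against st4 0.344% and 0.994%, and at st5 late against st5 early 0.426% and 0.441%. At st6 against st5 late, 0.396% were higher and 0.209% lower, at st7 against st6 0.277% and 0.0822%, at st8 against st7 0.546% and 0.0748%, and at st10 against st8 4.17% and 1.47%. With all libraries, the calls over the 9 steps numbered 8. Without the st6 library of series 1, st6 stood on the library of series 2 alone. Hedgehog and suppressor of fused were high in that library. Many more gene models of the whole table then passed at the 2 steps next to st6. More members passed there too, and calls that rest on 1 library at st6 are not read as a result about the members. In that fit hedgehog at st6 differed from st5 late by 1.04, suppressor of fused by 1.32 and cubitus interruptus by -1.21, and at st7 hedgehog differed from st6 by -1.55 and suppressor of fused by -1.33. Without the st6 library of series 2, no member passed at either step next to st6. Hedgehog at st3 against st2 differed by 0.93 with all libraries and also without both st6 libraries. Its limma adjusted p was 0.13 in the first fit and 0.041 in the second. Calls over the whole table at that step went from 602 to 1179 gene models between these fits, so the gain is not particular to hedgehog.

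Levels of members can also be set against each other within a library, since RPKM is relative to exon length. Cubitus interruptus, the activator, and suppressor of fused, its inhibitor, had a ratio of 0.957 ± 0.109 at st1 (SD, n = 2), 1.40 ± 0.0259 at st2 and 1.47 ± 0.0197 at st3. It was 4.75 ± 0.652 at st4, 5.54 ± 0.361 at st5 early and 5.29 ± 0.217 at st5 late. At st6 it was 0.865 in series 2 and 2.88 in series 1. It was 3.50 ± 0.322 at st7, 4.63 ± 0.438 at st8 and 4.96 ± 0.538 at st10. Apart from st6, the ratio was at least 3.28 in every library from st4 on and at most 1.49 in every library before.

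Patched and smoothened changed places. Their ratio averaged 0.126 ± 0.0454 at st1 (SD, n = 2), 0.766 ± 0.0119 at st3, 2.38 ± 0.266 at st4 and 8.63 ± 1.52 at st7. It was at most 0.774 in every library up to st3 and at least 2.19 in every library from st4 on. Patched and hedgehog were near parity at st3, with a ratio of 0.917 ± 0.296, and patched exceeded hedgehog by 4.53 ± 0.462 times at st7. The series disagreed on which was higher at st3, st4 and st6. In series 2 the ratio was 0.708, 1.57 and 0.882 at these stages, and in series 1 it was 1.13, 0.671 and 3.27. The same ratio at st1, 65.4 ± 10.4, rests on 1 read of hedgehog in each library.

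**Figure D3:**
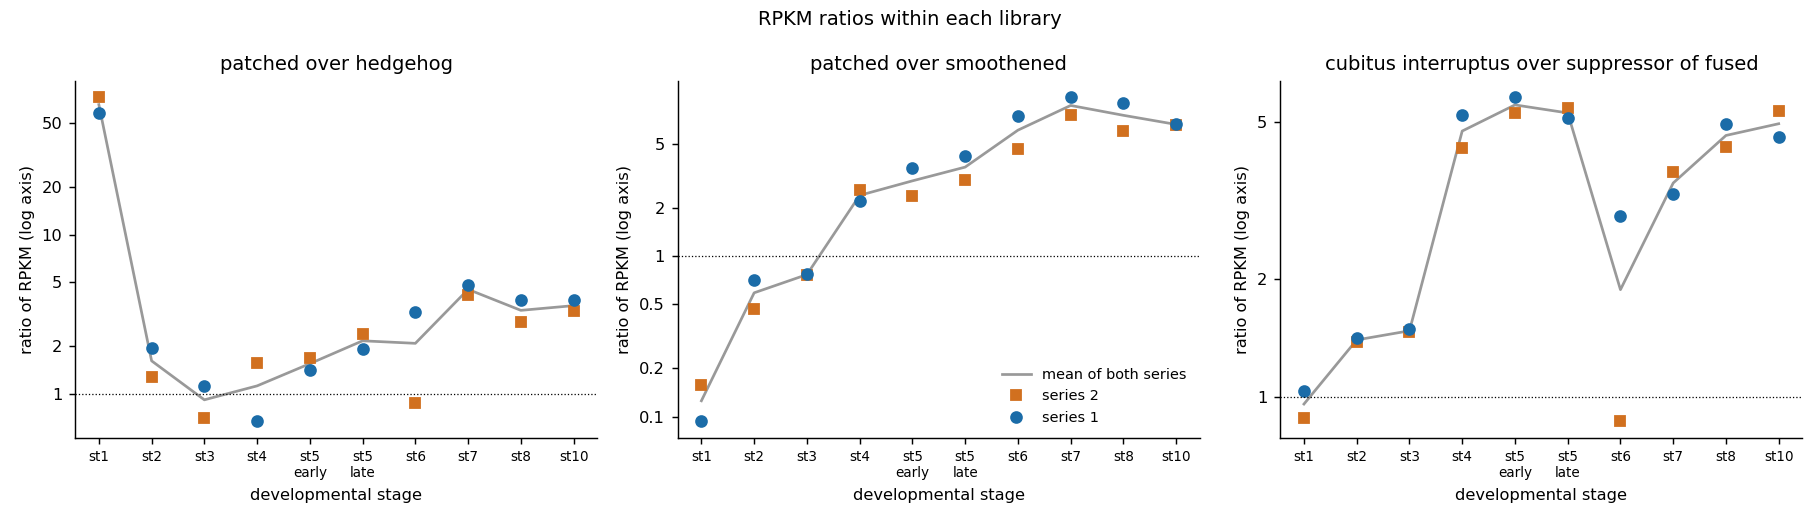
Ratio of RPKM within each library (vertical axes, logarithmic) by stage. Squares are series 2, circles are series 1, the solid line is their mean and the dotted line marks 1. The ratio of cubitus interruptus to suppressor of fused is 1.47 at st3 and 4.75 at st4, and the libraries of st6 stand at 0.865 and 2.88.

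The series themselves were compared next, with stage as a factor. None of the 6 members differed between series 2 and series 1 in limma, 0 had an unadjusted p under 0.05, and voom weights also gave 0. Of all gene models tested, 2.51% were higher in series 2 and 7.95% were lower. The differences of the members, series 2 minus series 1, lay between -0.19 for the patched fragment and 0.07 for suppressor of fused. Single stages differed more. At st6, hedgehog was higher in series 2 by 1.06 and suppressor of fused by 1.10, while the difference was -0.79 for patched and -0.58 for cubitus interruptus. The last 2 depend on the scale. With median-ratio scaling, cubitus interruptus at st6 was at 46.5 in both series, and patched at 71.2 in series 2 and 82.7 in series 1. Hedgehog stayed apart, at 80.7 in series 2 and 25.3 in series 1, as did suppressor of fused, at 53.7 and 16.1.

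**Figure D4:**
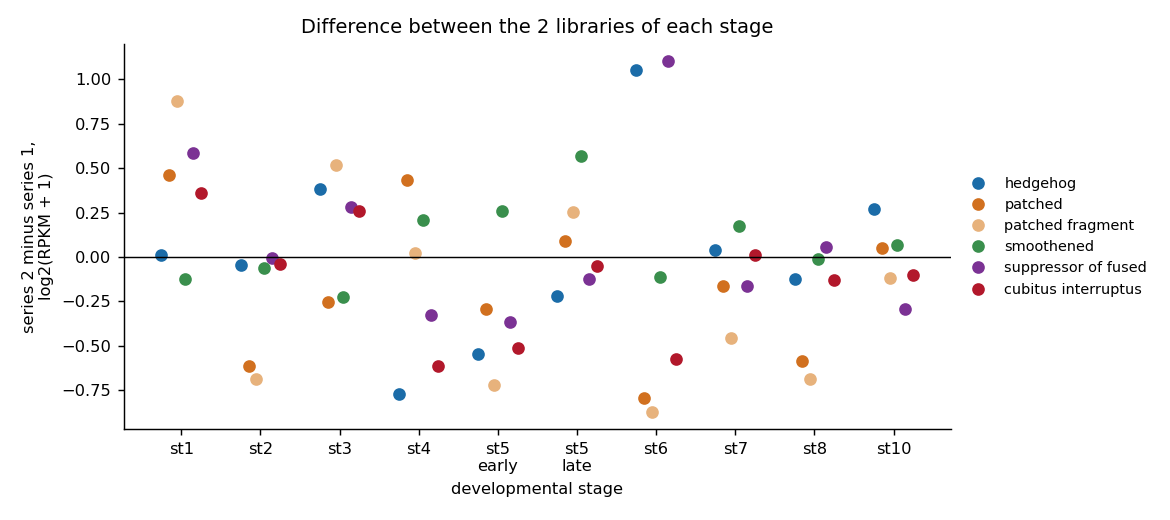
Series 2 minus series 1 in log2(RPKM + 1) of the values as deposited (vertical axis) for the 6 gene models tested, at each stage (horizontal axis). Each point is 1 pair of libraries. The widest spread is at st6, where hedgehog and suppressor of fused lie at 1.06 and 1.10, and patched and its fragment lie at -0.79 and -0.87.

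Gene models with other roles in the pathway were found through their descriptions, in lists chosen beside the members. Of 12 gene models for the release and spread of the ligand, 8 were higher in the germ disc stages than before them, 3 were lower and 1 did not pass. The median difference was 1.19, against -0.26 over all gene models tested, of which 24.4% were higher and 43.3% lower. In the germ band stages 4 of the 12 were higher than in the germ disc stages and 4 were lower, against 28.2% and 18.5% of all gene models tested. These shares are the background for the lists that follow as well. Glypican-5, aug3.g1222, belongs to a family of cell-surface proteoglycans that bind Hedgehog. It averaged 30.8 ± 1.29 RPKM at st10 and 0.796 ± 0.510 RPKM at st1 (SD, n = 2 throughout), and it was higher in the germ band than in the germ disc stages by 1.54 (SE 0.19). Notum1, aug3.g9270, is of an enzyme family that acts on lipid-modified Wnt proteins and was found in the list through its name. It averaged 34.3 ± 10.6 RPKM at st7 and 0.499 ± 0.0932 RPKM at st4. Dispatched, aug3.g10365, which releases Hedgehog from the cell that makes it, was chosen after its values were seen. It averaged 1.32 ± 0.415 RPKM at st10 and 7.12 ± 4.57 RPKM at st1, and its difference between the germ disc and the earlier stages was -1.09 (SE 0.25), while that of the ligand was 2.73. Exostosin-1-like, aug3.g3559, a family that builds the sugar chains of proteoglycans, was also chosen so. It averaged 12.4 ± 4.45 RPKM at st4 and 2.27 ± 0.651 RPKM at st3. Protein shifted-like, in Drosophila a secreted factor that helps Hedgehog spread, has 2 gene models with 1 locus ID, both chosen after their values were seen. The longer, aug3.g27568, averaged 17.1 ± 8.11 RPKM at st4 and 0.0727 ± 0.103 RPKM at st1, and the other, aug3.g24611, averaged 10.2 ± 4.62 RPKM at st4 and was listed at 0 RPKM in both st1 libraries.

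Of 13 gene models for co-receptors and reception, 9 were tested, of which 3 were higher in the germ disc stages, 5 were lower and 1 did not pass, against 24.4% higher and 43.3% lower of all gene models tested. In the germ band stages 7 of the 9 were higher than in the germ disc stages and 2 did not pass, against 28.2% higher of all gene models tested. Growth arrest-specific protein 1, aug3.g9575, a co-receptor of Hedgehog in vertebrates, averaged 0.183 ± 0.0108 RPKM at st1, 5.81 ± 1.72 RPKM at st4 and 147 ± 25.4 RPKM at st10. The gene model of low-density lipoprotein receptor-related protein 2, aug3.g19982, a large endocytic receptor, averaged 0.0802 ± 0.0173 RPKM at st4 and 385 ± 154 RPKM at st1. The 2 moved in opposite directions between st1 and st10, by 6.96 (SE 0.38) and -8.51 (SE 0.49).

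Of 15 gene models of cytoplasmic transduction, 13 were tested, of which 3 were higher in the germ disc stages, 6 were lower and 4 did not pass, close to the 24.4% and 43.3% of all gene models tested. In the germ band stages 1 was higher and 4 were lower. An inhibitor of the cAMP-dependent protein kinase, aug3.g7039, averaged 39.7 ± 7.62 RPKM at st10 and 534 ± 278 RPKM at st1. The kinase it inhibits phosphorylates Cubitus interruptus in Drosophila. Glycogen synthase kinase-3 beta, aug3.g25394, another kinase of that factor, averaged 3.43 ± 1.49 RPKM at st10 and 26.3 ± 4.41 RPKM at st1. Of 83 gene models with roles or names linked to degradation of the factor, 43 were tested, of which 15 were higher in the germ disc stages and 19 were lower, against the same shares. In the germ band stages 8 were higher and 14 were lower. Most of these are named for the speckle-type POZ family. Of the 2 with the widest range, aug3.g6682 averaged 0.0299 ± 0.0423 RPKM at st10 and 263 ± 46.2 RPKM at st1. The other, aug3.g18593, was listed at 0 RPKM in both st10 libraries and averaged 55.1 ± 4.48 RPKM at st1. Protein roadkill, aug3.g12578, chosen after its values were seen and in Drosophila an adaptor that turns Cubitus interruptus over, averaged 45.2 ± 2.63 RPKM at st10 and 31.6 ± 5.77 RPKM at st1. It was higher at st10 than at st1 by 0.51 (SE 0.21, limma adjusted p = 0.047), while the test across all stages did not pass (limma adjusted p = 0.052). F-box/WD repeat-containing protein 1A, aug3.g5127, the family of slimb, which marks Cubitus interruptus for processing in Drosophila, was chosen in the same way. It averaged 14.3 ± 0.135 RPKM at st10 and 40.8 ± 0.562 RPKM at st1.

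The list of Gli and Zic transcription factors held 4 gene models, 2 higher and 2 lower in the germ disc stages, and 1 was lower in the germ band stages. A gene model described as zinc finger protein ZIC 4-like, aug3.g12202, averaged 0.221 ± 0.139 RPKM at st1, 31.8 ± 18.5 RPKM at st2 and 95.9 ± 33.8 RPKM at st4. A second one with the same description, aug3.g9143, ran the other way. It averaged 5.89 ± 6.86 RPKM at st1, 5.98 ± 7.11 RPKM at st2 and 0.227 ± 0.248 RPKM at st4, and differed by -2.06 between the germ disc and the earlier stages (SE 0.47, limma adjusted p = 0.0013). Its series were far apart, with a level at st1 of 10.7 RPKM in series 2, against 1.04 RPKM in series 1. Of 11 segment genes linked to hedgehog in arthropods, 7 were tested, of which 3 were higher in the germ disc stages and 2 were lower. In the germ band stages 4 were higher and 1 was lower. The engrailed-like gene model ceh-16, aug3.g15243, averaged 40.8 ± 10.5 RPKM at st4 and 0.638 ± 0.504 RPKM at st3. It was higher in the germ disc stages by 5.08 (SE 0.21, limma adjusted p = 3.7e-11). The gene model of homeobox protein OTX2-A-like, aug3.g9172, of a family of head homeobox genes, ran differently. It averaged 6.75 ± 1.10 RPKM at st2, 0.732 ± 0.337 RPKM at st4 and 89.7 ± 8.63 RPKM at st5 late, and was lower at st4 than at st3 (-2.09, limma adjusted p = 4.5e-05). The gene model described as engrailed, aug3.g14050, and that of Wnt-1, aug3.g13045, were chosen after their values were seen. In Drosophila, engrailed and the Wnt-1 gene mark the 2 sides of each segment border together with hedgehog. At st6 engrailed averaged 2.69 ± 0.472 RPKM and Wnt-1 6.30 ± 5.52 RPKM, and at st4, where the mean of hedgehog was highest, both had 0 RPKM in both libraries. Of 22 gene models of transport in cilia, where vertebrate Hedgehog signalling takes place, 20 were tested, of which 3 were higher in the germ disc stages and 9 were lower. In the germ band stages 2 were higher and 1 was lower. Kinesin-like protein KIF3B, aug3.g18276, a subunit of a motor of cilia, averaged 2.72 ± 0.269 RPKM at st10 and 12.5 ± 0.467 RPKM at st1. Intraflagellar transport protein 22, aug3.g683, averaged 14.6 ± 4.24 RPKM at st10 and 3.46 ± 1.92 RPKM at st1.

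No description held the strings for serine/threonine-protein kinase 36, KIF7, KIF27, costal, ihog, CDON or HHAT, or a numbered zinc finger protein GLI, so these parts of the pathway were not analysed here.

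The table also holds gene models found through names linked to germ layers and the germ line, which whole embryos mix. The gene model of twist-related protein 2-like, aug3.g14287, a mesoderm factor, averaged 10.2 ± 0.354 RPKM at st3, 2.48 ± 2.37 RPKM at st4 and 30.1 ± 0.128 RPKM at st7, so its mean at st4 lay below both others. The other mesoderm gene model, twist-related protein-like aug3.g14166, was listed at 0 RPKM in every library up to st8 and averaged 6.19 ± 0.640 RPKM at st10. A gene model described as fork head domain-containing protein FD5-like, aug3.g4586, was found through the words fork head. Its description names no germ layer, and it is not taken as a marker of one. It averaged 0.266 ± 0.160 RPKM at st5 late, 10.2 ± 5.12 RPKM at st6 and 2.38 ± 0.175 RPKM at st10. Of the germ line gene models, piwi-like protein Ago3, aug3.g7042, averaged 107 ± 24.8 RPKM at st3, 80.5 ± 3.72 RPKM at st4 and 13.7 ± 2.43 RPKM at st10, and piwi-like protein 1, aug3.g11104, averaged 510 ± 160 RPKM, 740 ± 134 RPKM and 144 ± 23.6 RPKM at the same stages.

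Finally, the gene models whose course was most like that of hedgehog were ranked by the smaller of their 2 Pearson correlations with it, 1 per series over 10 stages, which share libraries and depth. The 5 most alike were aug3.g17452 (zinc finger CCCH domain-containing protein 18, 0.966), aug3.g3088 (uncharacterized, 0.962), aug3.g24115 (cytoplasmic dynein 2 heavy chain 1-like, 0.955), aug3.g469 (with no gene ID, 0.953) and aug3.g17485 (nucleolar protein 14 homolog, 0.950). The list depends on the measure, since none of the 5 stayed among the first 5 with Spearman's rho and 1 did with median-ratio scaling. Patched came 199th of 13359 gene models, at 0.830, its fragment 387th, cubitus interruptus 2206th, smoothened 5560th and suppressor of fused 5860th. The rank of cubitus interruptus comes from series 2, where its correlation was 0.39, against 0.82 in series 1. For patched they were 0.83 and 0.84. These ranks include both st6 libraries. Of the other members, patched thus followed the ligand most closely across the stages, as a description of these libraries.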

How the data were processed

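The labels gave the stage and series of every sample. Per the study's methods, the authors trimmed the reads with CLC Genomics Workbench, used BLAT to align them to Ptep_1.0, and filtered the alignments. Strand-specific counts on the AUGUSTUS gene models were made with htseq-count, and the deposited values are RPKM. The coverage tracks were not used here. All 20 columns were matched to samples, and 0 columns were left over. Reads lost by the uniqueness filter lower the values of gene models with near-identical copies.

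Read totals and exon lengths were recovered from the RPKM values, with a length found for 99.87% of gene models with any read. Lengths were chosen to give whole reads, so the 100% of values within 0.001 of a whole read follows from that choice. Counting intervals (95%, exact) and the limit of 3 reads cover counting error only. The tests used limma 3.58.1 in R 4.3.3 on log2(RPKM + 1) (lmFit, and eBayes with a trend). Gene models that reached 1 RPKM in 2 or more samples were tested, with Benjamini-Hochberg adjustment over 13375 gene models, a threshold of 0.05 and 10 residual degrees of freedom. They measure the spread between the 2 series. The scripts were tested on simulated data. Plots and tables used Python 3.11.15, numpy 2.4.6, scipy 1.17.1, pandas 2.3.3 and matplotlib 3.10.9.

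The replicate number was taken to name the pair of parents, so the numbers pair the samples. Deviations of the series correlated between 2 stages at -0.06 to 0.70 (median 0.24), over 0.1 in 37 of 45 pairs of stages. Every member was named. In each other list the 2 gene models called across stages with the widest range were named, and others are said to have been chosen after their values were seen. Descriptions matched by accident were dropped from the lists. The members and lists were chosen with earlier results of these data known. Locus synonyms came from RefSeq's table of CAS_Ptep_4.0, which held 6 of the 7 loci and of which no coordinates were used. Alternatives were no filter or one at 5 RPKM, a pseudocount of 0.1, median-ratio scaling, the replicate block, voom weights on recovered reads, only the 2 stages compared, no stage term, Spearman's rho and leaving out each library or both st6 libraries.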

Additional observations from a re-analysis of the deposited data

Results flagged for a closer look

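At some steps the change of a gene model had opposite signs in the series, with 1 library per stage in each. These differences were not tested, and with 1 library per stage they cannot be told apart from the spread between libraries. Values are changes in log2(RPKM + 1). At st6 against st5 late, hedgehog changed by 1.15 in series 2 and -0.12 in series 1, a difference of 1.27, and patched changed by -0.25 in series 2 and 0.64 in series 1, a difference of -0.89. Both rest on the st6 libraries, whose correlation with each other was the lowest of the 10 stages. The st6 library of series 2 had 92.82% of its reads on gene models, against 77.47% to 88.54% in the other libraries. Its median-ratio factor, 0.692, was the lowest of all libraries, and the next lowest was 0.816, for the st4 library of series 2. Whether this bears on the values of the members was not tested. With median-ratio scaling the signs of hedgehog stayed opposite. Patched then rose in both series, from 62.3 to 71.2 in series 2 and from 56.1 to 82.7 in series 1.

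For hedgehog the series also differed by 0.39 at st10 against st8. For patched the differences, series 2 minus series 1, were 0.36 at st3 against st2, -0.73 at st5 early against st4, 0.38 at st5 late against st5 early and 0.64 at st10 against st8. For the patched fragment, which had at most 49 reads in a library, they were 1.20 at st3 against st2, -0.75 at st5 early against st4 and 0.98 at st5 late against st5 early. For smoothened the difference was 0.43 at st4 against st3. With median-ratio scaling smoothened rose in both series at that step. Hedgehog then fell in both at st10 against st8, and patched in both at st5 late against st5 early. The rare ligand gene models gave 0.0567 at st7 against st6 for the second sonic hedgehog-like one, and -0.53 at st3 against st2 and -0.20 at st10 against st1 for the desert hedgehog B-like one, all on at most 11 reads per library.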

How the results depend on the processing

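The numbers of members called kept within 1.5 times of those reported under every alternative, with an exception. Without the st6 library of series 1, many more gene models of the whole table were called, and more members over the 9 consecutive steps. Leaving out single libraries gave 6 to 14 calls there. Fits with the pair of parents as a replicate block gave 6 members across stages, 6 between st10 and st1, 5 for the germ disc, 4 for the germ band and 8 over the steps, and the block changed no call.

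Cubitus interruptus at st10 against st1 lost its call with no filter (0.65, limma adjusted p = 0.052) and with only the 2 stages compared (limma adjusted p = 0.057), and leaving out single libraries gave 0.47 to 0.83. Leaving out single libraries gave 0.85 to 1.20 for cubitus interruptus and 1.29 to 2.17 for the patched fragment at st2 against st1, and -1.23 to -0.90 for suppressor of fused at st4 against st3. Median-ratio scaling gave -0.72 for the last. The median of all gene models was lower as deposited than with this scaling by 0.281 on the log2 scale at st10 against st1, by 0.223 at st4 against st3, by 0.22 for the germ disc, by 0.13 at st2 against st1 and by 0.111 between the series, and higher by 0.139 at st7 against st6.

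Signs turned for differences that had not passed. Smoothened in the germ disc was 0.0727 with scaling, and -0.33 to -0.14 with single libraries left out. Patched in the germ band was -0.057 with scaling and -0.0758 to 0.12 with single libraries left out, and its fragment was -0.15 to 0.0886. Between the series, hedgehog was -0.11 and suppressor of fused -0.0402 without both st6 libraries, with ranges of -0.11 to 0.0917 and -0.0402 to 0.12 over single libraries left out. The patched fragment was 0.0303 with a pseudocount of 0.1 and cubitus interruptus 0.0069 with scaling. The causes were not tested. Of the 5 gene models most like hedgehog, 0 stayed with Spearman's rho and 1 with scaling.

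With no filter, the second sonic hedgehog-like gene model was lower at st2 (-0.86, limma adjusted p = 0.0043) and st10 (-0.94, 0.0008) than at st1 and in the germ disc (-0.34, 0.014), and the desert hedgehog B-like one was lower in the germ disc (-0.24, 0.011). Of 4 tested members with 1 shared stage of highest value, scaling left 3, since patched in series 2 moved to st4. Depth limits the rare ligands and the patched fragment, for which 3 reads were worth 1.68 to 3.12 RPKM.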
